A study of Mus musculus with 3 samples.

Results

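The genes described here build and mark the actin cytoskeleton, smooth muscle and pericytes. They are 36 genes chosen by symbol, of 19737 genes named on the array, and 59 probes carry them. They comprise 14 contractile proteins, 5 contractile LIM and stress adaptors, 10 general cytoskeleton genes, the transcription factor gene Srf with its coactivator gene Myocd, and 5 pericyte markers. Of the 36, 33 were well above background on at least 1 array and 32 on all of them. The samples were primary endothelial cells from the penile cavernous tissue of C57BL/6 mice, grown in serum with heparin and VEGF-A. The array labelled normal glucose held cells kept in 5 mmol glucose for 48 hours, and the array labelled high glucose held cells in 30 mmol. The array labelled siRNA held cells in 30 mmol glucose that had been transfected by Lipofectamine with 200 pmol of siRNA against Ninj1, which encodes the adhesion protein ninjurin 1. The labels do not say whether the other cells received a control siRNA, and the age of the mice is not given in the sources used here.

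Each group was a single array of RNA pooled over 3 numbered samples. No difference below therefore has a replicate check, and no test between groups was run. The one error the arrays measure is the spread of repeated spots: its median SD for a difference between arrays was 0.08 on the log2 scale, and 0.19 for signals under 200. The targeted gene is a check of the labels. The processed signal of Ninj1 was 20413 on the normal glucose label, 16291 on the high glucose label and 25539 on the siRNA label, so its scaled level was 1.34-fold higher on the siRNA label than on the high glucose label. This goes against the labels, and the group words in the file names exchange the 2 high-glucose arrays. For this reason an array is named here by its label, and every direction between these 2 labels would turn with the exchange.

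Smooth muscle cells and pericytes wrap blood vessels, and cavernous tissue is largely smooth muscle around endothelium-lined spaces. Their contractile apparatus is made of actin, myosin and the proteins that sit along actin filaments. Many of these genes are switched on by serum response factor, SRF, which binds a DNA element named the CArG box together with myocardin or the related MRTF proteins. Free actin monomers hold the MRTF proteins in the cytoplasm, so actin assembly and this gene programme are coupled. Cultured endothelial cells and fibroblasts can also express part of the programme.

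Of the 5 classes, the contractile proteins had the median furthest from 0. On the siRNA label 6 of the 12 that could be compared were at least 2-fold lower than on the high glucose label, and none was 2-fold higher. Over all 15626 named genes read in this comparison, 8.21% were at least 2-fold lower and 6.51% at least 2-fold higher. The members and the lists below were chosen with earlier results of these data known. Such contrasts with all named genes are therefore no independent evidence. The median log2 difference of the 12 was -1.05, a 2.07-fold lower level, against 0.02 for all named genes. With the contractile LIM and stress adaptors included, 6 of 17 were at least 2-fold lower. Of these 17, 10 were lower and 7 higher in all, with a median of -0.69. In bulk RNA, fewer cells of a type and less RNA per cell cannot be told apart. Processed signals below are unscaled and run in the order normal glucose, high glucose, siRNA label. Folds and differences were taken after each array was scaled to its 75th percentile, which was a signal of 1781, 1731 and 2026 in the same order.

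**Figure D1:**
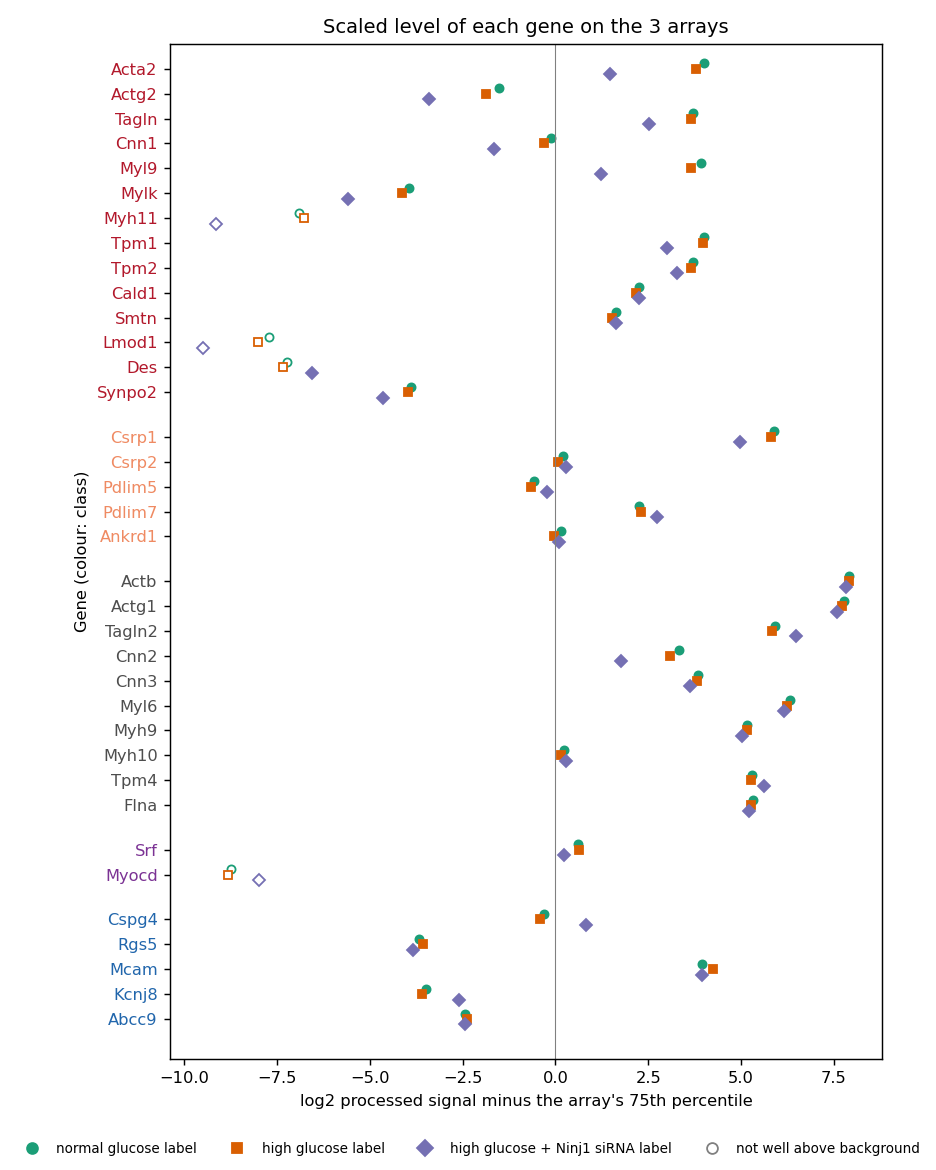
Scaled level of each member gene on the 3 arrays, as log2 processed signal minus the array's 75th percentile, with 1 point per array and open points where the probe was not well above background. Levels of different genes come from different probes and cannot be ranked; within a row, the siRNA label lies left of the other arrays for Acta2, Myl9, Actg2, Mylk, Cnn1, Cnn2 and Tagln, and right of them for Cspg4 and Kcnj8.

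Myl9, the regulatory light chain of smooth muscle myosin, gave signals of 26716, 21555 and 4780. Its scaled level on the siRNA label was 5.28-fold lower than on the high glucose label, a log2 difference of -2.40. Acta2, smooth muscle alpha-actin, is read by 10 spots of a single probe and gave 28408, 24064 and 5615. The SD between its spots was 1094, 832 and 240, far less than the gap between the siRNA label and the other arrays. The level was 5.02-fold lower, a log2 difference of -2.33. For both genes the arrays labelled normal and high glucose lay close together and the siRNA label stood apart.

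Actg2, the smooth muscle gamma-actin, had signals of 622, 475 and 189 and was 2.94-fold lower on the siRNA label than on the high glucose label. Mylk encodes the kinase that activates Myl9. It was dim, at 115, 98.3 and 42.4, and 2.72-fold lower, but with a normexp background correction its log2 difference was -0.74 in place of -1.44, below the 2-fold threshold. Actin paralogs encode near-identical proteins, so the Actg2 and Acta2 probes may share signal. The probe sequences were not compared.

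Cnn1, calponin, which binds actin and restrains myosin, gave signals of 1635, 1399 and 648 and was 2.53-fold lower. Tagln, the actin-bundling protein also named SM22-alpha, gave 23020, 21549 and 11550 and was 2.18-fold lower. In both the siRNA label was the low array, and the high glucose label differed from the normal glucose label by only -0.18 and -0.05.

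The remaining contractile proteins did not reach 2-fold. Tpm1, a tropomyosin that lies along the actin filament, had signals of 28427, 27346 and 16376 on its brightest probe and a log2 difference of -0.97. Its 4 other probes gave -0.35, -0.24, -0.22 and 0.34, so the gene's probes did not share a direction. The difference passed 2-fold under 3 alternatives, at -1.02 with quantile normalization, -1.08 with cyclic loess and -1.04 with normexp, and was -0.29 as the mean over probes. Tpm2, a second tropomyosin gene, had signals of 23037, 21610 and 19568 and differed by -0.37, with -0.38 on its other probe.

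Synpo2, an actin-bundling protein of muscle, was at 119, 111 and 80.8 and differed by -0.69. A second Synpo2 probe was well above background only on the normal glucose label, at least 9.74-fold above its bound on the high glucose label, while the first probe differed there by -0.06. Cald1, the actin-binding caldesmon, had signals of 8425, 7799 and 9663 and a difference of 0.08. Smtn, smoothelin, had 5467, 4947 and 6247 and differed by 0.11, with -0.11 on its other probe. The differences of Cald1 and Smtn lay within 2 times the spot noise of 0.08.

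Several defining markers of mature smooth muscle were dim or unread. Myh11, the smooth muscle myosin heavy chain, had signals of 14.7, 15.8 and 3.60, and no array read it well above background. The same held for Lmod1, an actin nucleator of smooth muscle, at 8.39, 6.76 and 2.79. Des, the intermediate filament protein desmin, was well above background only on the siRNA label, with a signal of 21.6 against 11.9 and 10.7, which allows a level at least 1.13-fold higher there. Des is dim enough that its spots, with an SD of 1.97 on the siRNA label, leave little precision.

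Among the contractile LIM and stress adaptors, none of the 5 reached 2-fold on the probe that stands for the gene, and the median difference was 0.21. Csrp1, a LIM protein of the actin cytoskeleton, was the lowest of them, with signals of 105694, 96755 and 63229 and a difference of -0.84. It passed the threshold with quantile normalization and with cyclic loess, at -1.003 and -1.005. Csrp2, its relative in smooth muscle, had signals of 2041, 1816 and 2463 and differed by 0.21. Ankrd1, a stress-responsive ankyrin repeat protein, had 1959, 1678 and 2164 and differed by 0.14.

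Pdlim5 and Pdlim7 encode scaffolds with PDZ and LIM domains that sit on actin filaments. Pdlim7 had signals of 8421, 8489 and 13608 on its brightest probe, a difference of 0.45, with 0.13 and -0.05 on the others. The probes of Pdlim5 differed in direction. Its brightest probe, with 1185, 1105 and 1733, differed by 0.42. The other 2 probes had 418, 407 and 177 and 122, 130 and 49.7, and differed by -1.43 and -1.61. Of the 12 members with several readable probes, Pdlim5, Pdlim7, Smtn and Tpm1 were the 4 whose probes did not agree in direction, and the other 8 did.

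**Figure D2:**
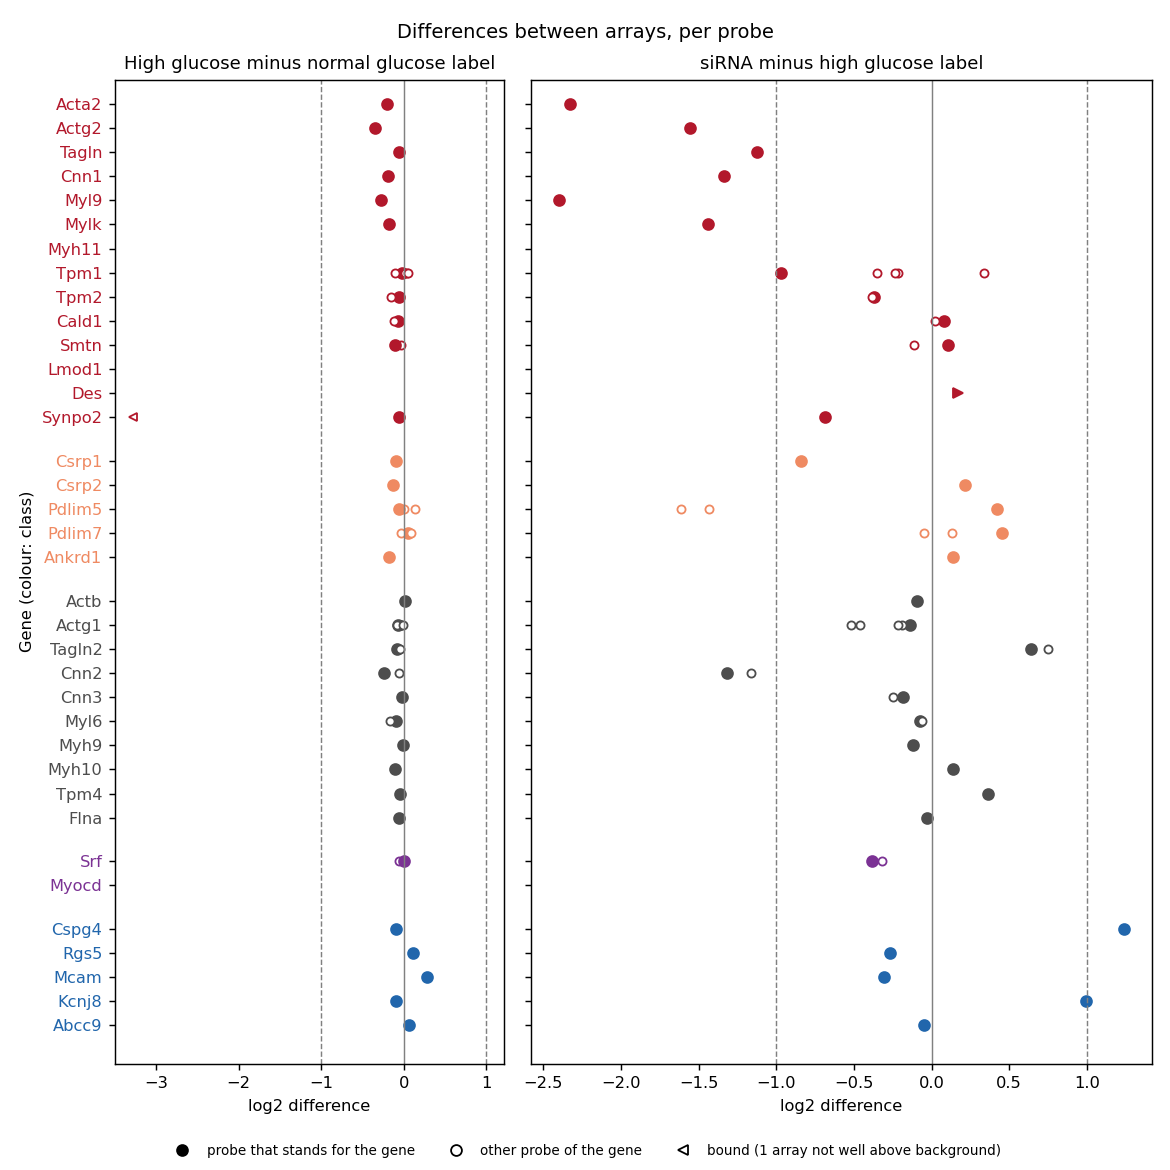
Log2 difference of every readable probe of each member, high glucose minus normal glucose label on the left and siRNA minus high glucose label on the right; filled points stand for the gene, open points are its other probes, triangles are bounds and dashed lines mark 2-fold. On the left all genes lie near 0 except a Synpo2 bound, and on the right Myl9 and Acta2 reach -2.40 and -2.33 while Cspg4 reaches 1.24.

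The general cytoskeleton genes, which most cells express, differed in both directions. Of the 10, 1 was at least 2-fold lower and none 2-fold higher, beside 8.21% and 6.51% of all named genes. The median difference between the siRNA and high glucose labels was -0.08. Actb and Actg1, the cytoplasmic actins, had differences of -0.09 and -0.14. Actb had signals of 425674, 418396 and 459728, and Actg1 391669, 364234 and 386810 on its brightest probe. All 5 Actg1 probes were lower, from -0.52 to -0.14, and Actb changed sign between scalings, from -0.32 to 0.05.

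Cnn2 was the exception. It encodes the calponin of non-muscle and smooth muscle cells, and its signals of 17921, 14770 and 6925 made it 2.497-fold lower on the siRNA label, a difference of -1.32. Its second probe differed by -1.16. Cnn3, the third calponin, had signals of 25403, 24329 and 25083 and a difference of -0.18, so Cnn1 and Cnn2 were past 2-fold and Cnn3 was not.

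Tagln2, the widely expressed relative of Tagln, ran the other way from it. Its signals were 107235, 98833 and 180451, a difference of 0.64, and its other probe gave 0.75. Tpm4, a cytoskeletal tropomyosin, had 70190, 66082 and 99360 and differed by 0.36. Thus the Tagln and tropomyosin families each held members that were lower and members that were higher on the siRNA label.

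The non-muscle motors and linkers showed small differences. Myh9 and Myh10, the heavy chains of non-muscle myosin II, differed by -0.12 and 0.14, with signals of 63409, 61499 and 66413 and of 2107, 1906 and 2460. Myl6, the essential light chain, had 141819, 129521 and 144259 and differed by -0.07. Flna, the actin crosslinker filamin A, had 70596, 66031 and 75624 and differed by -0.03. The regulatory light chain Myl9 was thus far lower on the siRNA label while the essential light chain Myl6 and the heavy chains were within 2 times the spot noise.

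Srf itself had signals of 2721, 2662 and 2390 and was 1.30-fold lower on the siRNA label, a difference of -0.38, with -0.32 on its second probe. Myocd, the coactivator restricted to smooth and cardiac muscle, was too dim to compare, at 4.13, 3.83 and 7.95. Mrtfa and Mrtfb, the broadly expressed coactivators, differed by -0.47 and 0.01; these genes were singled out after their values were seen.

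Promoter sequences bear on the SRF programme, since the CArG box is its DNA element. RefSeq windows of GRCm38.p6, from 250 bases before to 50 after each start site, were found for 30 of the 36 members. Actb, Actg2, Csrp2, Myh11, Myocd and Tagln were not matched. Both strands were searched for the CArG box in its strict form, with only A and T in its core of 6 letters, and in a form with 1 G or C there. The strict form occurred in 5 of the 30 members, 16.7%, against 1.81% of all 27025 genes with a window. The members were chosen by symbol and include known SRF targets, so this share is no independent evidence. Of the 5, 3 were general cytoskeleton genes and 1 was Srf, while only 1 of 11 contractile proteins held a strict match. Either form occurred in 6 of the 30, 20.0%, against 11.3% of all genes. The sequences below are the 250 bases before the start of 5 members, with CArG matches in capitals. Myl9, Acta2 and Cnn2 are the 2-fold lower members with a match, Srf is the factor's own gene, and Actg1 has a match with a difference of only -0.14. They lie at chr2:156775214-156775463 on the + strand for Myl9, chr19:34255374-34255623 on the - strand for Acta2, chr10:79988350-79988599 on the + strand for Cnn2, chr17:46556163-46556412 on the - strand for Srf and chr11:120348496-120348745 on the - strand for Actg1.
Myl9: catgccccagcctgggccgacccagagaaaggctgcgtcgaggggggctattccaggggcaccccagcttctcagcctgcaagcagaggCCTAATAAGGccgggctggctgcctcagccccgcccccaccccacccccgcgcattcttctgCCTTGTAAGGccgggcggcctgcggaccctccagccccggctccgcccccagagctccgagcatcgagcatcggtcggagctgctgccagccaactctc
Acta2: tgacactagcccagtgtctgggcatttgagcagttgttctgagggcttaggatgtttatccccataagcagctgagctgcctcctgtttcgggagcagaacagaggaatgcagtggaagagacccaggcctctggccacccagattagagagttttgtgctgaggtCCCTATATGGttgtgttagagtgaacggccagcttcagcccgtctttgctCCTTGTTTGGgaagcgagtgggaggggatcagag
Cnn2: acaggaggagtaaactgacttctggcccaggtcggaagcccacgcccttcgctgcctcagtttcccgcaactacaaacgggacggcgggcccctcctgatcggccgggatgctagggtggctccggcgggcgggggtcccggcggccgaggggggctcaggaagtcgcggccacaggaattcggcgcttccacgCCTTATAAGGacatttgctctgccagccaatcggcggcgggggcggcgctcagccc
Srf: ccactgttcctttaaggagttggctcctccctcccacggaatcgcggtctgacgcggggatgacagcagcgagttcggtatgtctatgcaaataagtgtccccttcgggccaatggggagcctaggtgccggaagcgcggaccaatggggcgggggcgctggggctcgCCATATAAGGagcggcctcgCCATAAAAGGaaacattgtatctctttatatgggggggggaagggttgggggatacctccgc
Actg1: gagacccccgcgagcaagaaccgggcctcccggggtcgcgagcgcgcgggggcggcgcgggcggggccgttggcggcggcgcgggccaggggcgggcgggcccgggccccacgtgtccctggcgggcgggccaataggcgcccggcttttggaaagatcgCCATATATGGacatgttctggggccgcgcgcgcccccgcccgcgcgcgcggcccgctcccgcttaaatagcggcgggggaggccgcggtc

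In the Myl9 window a strict match began 161 bases before the start and a match with 1 G or C began 99 bases before it. Acta2 held matches of the second form only, beginning 84 and 34 bases before the start. Cnn2 held a strict match at 56 bases, and Srf held strict matches at 82 and 62 bases. Actg1 and Myl6 held strict matches at 90 and 50 bases, although their differences between the siRNA and high glucose labels were -0.14 and -0.07.

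Of the 5 members at least 2-fold lower that have a window, 3 held a match of either form, and of the 24 other members read and matched, 3 did. Cnn1 and Mylk were lower by 2.53-fold and 2.72-fold with no match in these windows, which says only that these letters are not there. The letters GGAATG, the core of the element bound by TEAD factors, searched on both strands, overlapped no CArG match in these windows and occurred in 11 of the 30 members, 36.7%, against 16.6% of all genes. Acta2 and Mylk were among the 11, and so were Abcc9, Ankrd1, Cald1, Flna, Lmod1, Myh10, Smtn, Tagln2 and Tpm1. GGAATG thus occurred in 2 of the 5 members at least 2-fold lower and in 8 of the 24 others. A match describes the letters of a window and is not a measured binding site.

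**Figure D3:**
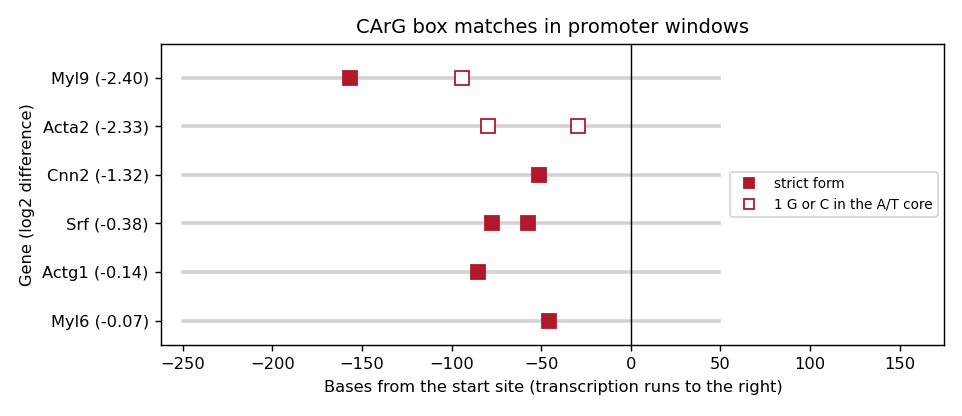
Position of CArG box matches in the promoter windows of the 6 members that hold any, in bases from the start site, with the log2 difference between the siRNA and high glucose labels after each name; filled squares are the strict form and open squares the form with 1 G or C in the core. Matches lie between 161 and 25 bases before the start, in genes with differences from -2.40 to -0.07.

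The pericyte markers showed no common direction. Of 5, 1 was at least 2-fold higher and none lower, beside 6.51% and 8.21% of all named genes. The median difference was -0.05. Cspg4, the NG2 proteoglycan of pericytes, had signals of 1425, 1297 and 3588 and was 2.36-fold higher on the siRNA label, a difference of 1.24. Kcnj8, the pore subunit of the vascular ATP-sensitive potassium channel, had 158, 144 and 337, and its difference of 0.998 lay just under the threshold. It passed with quantile normalization at 1.09, with cyclic loess at 1.03 and with median scaling at 1.01, and was 0.73 with normexp.

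Abcc9, the regulatory subunit of the same channel, had signals of 327, 332 and 376 and differed by -0.05, while its partner Kcnj8 was near 2-fold higher. Rgs5, a regulator of G protein signalling and a pericyte marker, had 139, 146 and 142 and differed by -0.27. Mcam, the adhesion molecule CD146 that pericytes and endothelial cells share, had 27660, 32838 and 31104 and differed by -0.31. Cspg4 and Kcnj8 were thus higher on the siRNA label while Rgs5 and Mcam were lower, and Abcc9 changed sign between alternatives. The difference of Rgs5 lay within 2 times the noise of 0.19 found for signals under 200.

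Over all 33 members that could be compared, 7 were at least 2-fold lower and 1 at least 2-fold higher on the siRNA label. The shares of all named genes were 8.21% and 6.51%. In all, 21 members were lower and 12 higher, with a median of -0.12. At a threshold of 1.5-fold the counts were 10 lower and 3 higher, beside 15.8% and 14.3% of all named genes. At 3-fold they were 2 lower and 0 higher, beside 3.36% and 2.62%. Myl9 and Acta2 were the 2 past 3-fold. Of the 33, 10 differed by no more than 2 times the spot noise of 0.08 over all signals.

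Between the normal and high glucose labels, none of the 32 members that could be compared reached 2-fold on the probe that stands for it, where 0.690% of 15081 named genes were at least 2-fold lower and 0.816% at least 2-fold higher. Most were slightly lower on the high glucose label, 26 against 6 higher, with a median of -0.07 against -0.01 for all named genes, of which 8387 were lower and 6694 higher. All 11 readable contractile proteins were lower, from -0.35 for Actg2 to -0.01 for Tpm1. Myl9 differed by -0.27, Cnn2 by -0.24, Acta2 by -0.20 and Cnn1, Mylk and Ankrd1 by -0.18 each, while Mcam differed by 0.29. The other 24 members lay within 2 times the spot noise of 0.08 over all signals, and Mylk, at 115 and 98.3, lay within the noise of 0.19 found for signals under 200. The second Synpo2 probe named above is the exception among the other probes. With the 2 high-glucose arrays exchanged, 7 members would be at least 2-fold lower and 1 higher here. Each label has its own place on the slide, so place and group cannot be told apart.

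The siRNA label compared with the normal glucose label put the same class furthest from 0, with a contractile median of -1.08. It shares an array with each of the other comparisons and is no independent evidence. In it 7 members were at least 2-fold lower and 1 higher, beside 7.94% and 6.35% of 15582 named genes. The level was 6.36-fold lower for Myl9, 5.76-fold for Acta2, 3.73-fold for Actg2, 3.08-fold for Mylk, 2.94-fold for Cnn2, 2.87-fold for Cnn1 and 2.27-fold for Tagln. Cspg4 was 2.21-fold higher. With the 2 high-glucose arrays exchanged, none of these calls would remain, with 0 lower and 0 higher. At 1.5-fold there were 10 lower and 2 higher members beside 15.5% and 13.7% of named genes, and at 3-fold 4 lower and 0 higher beside 3.26% and 2.52%.

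Other genes of the SRF and MRTF programme showed no common shift. Of 17 compared, 2 were at least 2-fold lower on the siRNA than on the high glucose label and 1 higher, with a median of -0.11. These are 11.8% and 5.88% of the list, near the 8.21% and 6.51% of all named genes. Fhl1, a LIM protein of muscle, differed by -2.10 and Vcl, the focal adhesion protein vinculin, by -1.21. Lima1, an actin crosslinker, differed by -0.86 and the immediate early gene Ier2 by 1.57.

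Of the 14 genes of the YAP and TEAD pathway, which responds to actin tension, 3 were at least 2-fold lower and 2 higher. The shares of all named genes were 8.21% and 6.51%. In all, 8 were lower and 6 higher, with a median of -0.05. The matrix protein genes Ccn2 and Ccn1 differed by -2.90 and -1.59, and Amotl1 and Tead4 by 1.51 each. Axl, of the same list, differed by -0.01.

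**Figure D4:**
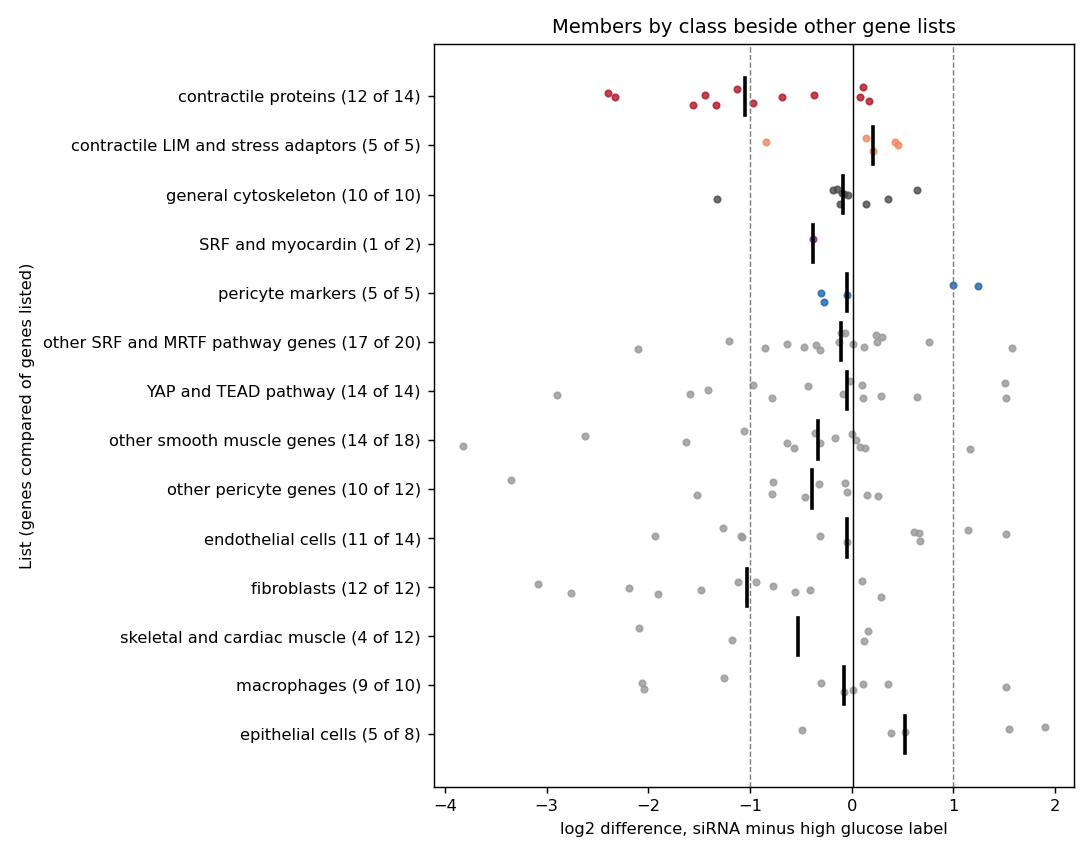
Log2 difference between the siRNA and high glucose labels for every compared gene of the member classes (coloured) and of other lists (grey), with black bars at the medians and dashed lines at 2-fold. The medians of contractile proteins and fibroblast markers lie at -1.05 and -1.03, and those of general cytoskeleton, the 5 pericyte markers and endothelial cells within 0.10 of 0.

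Marker lists of the cells such a culture could hold were read the same way. Of 18 other smooth muscle genes, 14 could be compared, with a median of -0.34. Of the 14, 4 were at least 2-fold lower and 1 higher, beside 8.21% and 6.51% of all named genes. Aoc3 differed by -3.82, Itga8 by -2.62, Itga1 by -1.62 and Npnt by 1.16, while Kcnmb1, Pln, Casq2 and Gucy1a1 were not well above background. The summed signal of the list was 34649, 32784 and 37878 on the normal glucose, high glucose and siRNA labels, most of it from the widely expressed Actn4 with 27091, 25776 and 31882; that gene was singled out after its values were seen. These sums are unscaled, and the array's 75th percentile was highest on the siRNA label. They therefore cannot be set against the 10 of 14 genes that were lower after scaling.

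Of 12 other pericyte genes, 10 could be compared, with a median of -0.39. Of the 10, 2 were at least 2-fold lower and none higher, beside 8.21% and 6.51% of all named genes. Steap4 differed by -3.35, Pdgfrb, the receptor that recruits pericytes, by -1.53, and Tbx18 and Ebf1 by -0.78 each; Vtn and Heyl were not well above background. Their summed signal was 40888, 40946 and 26300. Pdgfrb was thus lower on the siRNA label while Cspg4 was higher.

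Most fibroblast markers were lower alongside the contractile proteins. Of 12, 6 were at least 2-fold lower on the siRNA label and none higher, beside 8.21% and 6.51% of all named genes. The median was -1.03, led by Dpt at -3.08, Lum at -2.76, Fbln1 at -2.19 and Col3a1 at -1.90. The 6 include Dpp4, a bound from dim signals of 10.5, 21.7 and 2.67. In all, 10 were lower and 2 higher, Pi16 by 0.29 and Thy1 by 0.10. Their summed signal was 1044280, 1028090 and 804359. Their part in the lower contractile proteins was not tested.

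The endothelial label of the cells was borne out for some markers only. Kdr, a VEGF receptor, had signals of 7440, 7298 and 8278, but Pecam1 had 61.9, 76.5 and 72.4, and Tie1, Emcn and Erg were not well above background on any array. Of 14 endothelial markers 11 could be compared, with a median of -0.05, and their summed signal was 11576, 11316 and 15818. Of the 11, 4 were at least 2-fold lower and 2 higher, beside 8.21% and 6.51% of all named genes. The 4 lower markers were dim, with high glucose label signals of 66.2 for Vwf, 52.1 for Robo4, 38.1 for Tek and 21.3 for Cldn5. Tek and Cldn5 were bounds. Kdr differed by -0.05, and Egfl7 and Flt1 by 0.67 and 0.62. In all, 6 were lower and 5 higher. Cdh5, the endothelial cadherin, differed by 1.51, Esam by 1.15, Vwf by -1.26 and Robo4 by -1.09, and Tek, read well above background on the high but not the siRNA label, was at least 3.82-fold lower. Macrophage markers had a median of -0.07 over 9 genes. Of the 9, 3 were at least 2-fold lower and 1 higher, beside the same 8.21% and 6.51%. Their summed signal was 13491, 12700 and 23218, in which Cd14 alone gave 5420, 4989 and 16711. Adgre1 differed by -2.06, Lyz2 by -2.05, Cd14 by 1.52 and Ptprc by -1.25. The part of any of these cell types in the member differences was not tested.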

How the data were processed

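RNA of each group, pooled over 3 numbered samples, was hybridised to 1 array of the same slide with Cy3. Per the file headers, Agilent Feature Extraction 11.0.1.1 gave spot intensity on a linear scale with background subtracted. The series value table the authors deposited holds the same linear intensity: 100% of 38999 single-spot probes matched within 0.1%, with column medians of 118, 118 and 129 for the normal glucose, high glucose and siRNA labels. Its scale is linear and uncentred, and how repeated spots were combined is unknown. With 1 array a group, their number limits the precision.

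Outlier spots, 109, 147 and 107 in that order, were dropped; no spot was saturated. Values are the mean log2 signal of a probe's spots less the 75th percentile of that array. Of the probes, 67.1%, 67.6% and 70.6% were well above background, a mark that had to hold for at least 50% of a probe's spots. Where 1 of 2 arrays missed it, the difference is a bound, taken against the dim value itself or, if higher, the lowest level that passed on that array. A difference of at least 2-fold counted as called. Probes were named by accession without version through the RefSeq gene table of GRCm38.p6 (26036 of 39429 probes, 66.0%; 31 probes without a usable spot on an array were dropped). The files use mm9, so no probe coordinates are given. The brightest readable probe stands for a gene. Members and lists were chosen with earlier results of these data known. All members are named. From each other list up to 4 genes are named. These have the largest difference between the siRNA and high glucose labels among genes well above background on both. Defining markers, genes that bear on a count or sum, and Ninj1 are named beside them. Computations used Python 3.11.15, numpy 2.4.6, pandas 2.3.3 and matplotlib 3.10.9. Alternatives, with R 4.3.3 and limma 3.58.1 where needed, were quantile and cyclic loess normalization, median scaling, normexp with an offset of 50 on median spot and background signals, the deposited table, other probe and spot filters, other fold thresholds and exchanged high-glucose labels; the bright-member subset, the second CArG form and single-probe values were chosen after seeing the data. Scripts were tested on simulated data. Some results on other lists are not reported here.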

Additional observations from a re-analysis of the deposited data

How the results depend on the processing

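With 1 array per group, no alternative changes the error, and the limits are spot noise, dim signals and the labels. No paired analysis was possible because each group is a single array. Exchanging the 2 high-glucose arrays turns each difference between them by construction: 2.33 for Acta2, 1.56 for Actg2, 1.13 for Tagln, 1.34 for Cnn1, 1.32 for Cnn2, 2.40 for Myl9, 1.44 for Mylk and -1.24 for Cspg4. The medians become 1.05 for contractile proteins, 0.69 with adaptors included, 0.082 for general cytoskeleton, 0.046 for pericyte markers and 1.03 for fibroblasts. The counts at 2-fold become 7 higher and 1 lower between these arrays, 1 higher and 7 lower for high against normal glucose, and 0 and 0 for siRNA against normal glucose.

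Across the other 9 alternatives 29 of 33 members kept their direction and 29 their side of 2-fold, Des over the 7 of them that gave it a value. Smtn, Actb, Pdlim5 and Abcc9 did not keep the direction, and Mylk, Tpm1, Csrp1 and Kcnj8 did not keep the side. Pdlim5 kept the side with a lowest value of -0.87, although its 2 dimmer probes were past 2-fold lower, at -1.43 and -1.61. Members at least 2-fold higher numbered 2 in place of 1 with quantile normalization, 2 with cyclic loess and 2 with median scaling, the added gene being Kcnj8. At 1.5-fold they numbered 3 (2 against normal glucose), and at 3-fold 0 in both comparisons, where 2 and 4 were lower. Averaging a gene's probes gave 1 member 2-fold lower on high than on normal glucose. The contractile and adaptor median of -0.69 was -0.58 with quantile normalization, -0.84 without the filter on dim probes and -0.54 over all probes, and the general cytoskeleton median was -0.26 with cyclic loess; the cause was not tested. Only members with a signal of at least 200 on every array, 27 in all, gave 5 lower and 1 higher; Actg2 fails this filter only on the siRNA label.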

Other observations

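Muscle genes of other kinds were mostly dim. Of 12 skeletal and cardiac muscle genes, 4 could be compared between the siRNA and high glucose labels, and Actc1, Myog, Ckm and Ttn were not well above background. Acta1, the skeletal alpha-actin, had signals of 1160, 1022 and 280 on the normal glucose, high glucose and siRNA labels and differed by -2.09 between the latter, with the caution that actin probes may share signal. Tnnt3, a fast skeletal troponin, had 88.6, 78.9 and 41.0 and differed by -1.17. Going the other way, Myh7 had 58.5, 46.8 and 61.1 and differed by 0.16. In all, 2 of the 4 were lower and 2 higher. The list's summed signal was 1345, 1185 and 409, most of it from Acta1.

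Of 8 epithelial genes 5 were compared. On the siRNA label 2 were at least 2-fold higher and none lower, beside 6.51% and 8.21% of all named genes. The keratins Krt18, with signals of 87.0, 102 and 449, and Krt19, with 209, 186 and 638, differed by 1.90 and 1.55. Trp63 went the other way, with 3548, 3377 and 2822 and a difference of -0.49. Krt8, Epcam and Cdh1 were not well above background.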
